A study of Mus musculus with 6 samples.

Results

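The miRNAs miR-296, miR-298 and miR-470 were followed across mouse embryonic stem cells (mESCs) and embryoid bodies (EBs). All entries of these names were taken, both arms of each hairpin, which gave 6 of the 1247 mouse miRNA entries on the array. Only the 5p arms of miR-296 and miR-298 were detected, on all 6 arrays. The other 4 entries were detected on none.

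A miRNA is cut from a hairpin precursor, and either arm of the hairpin can be kept as the mature strand. The mature strand pairs with messenger RNAs mainly through its seed, bases 2 to 8, and lowers their output. The genes of miR-296 and miR-298 lie side by side in the imprinted Gnas locus, within the antisense transcript Nespas, which is expressed from the paternal allele. In mouse ES cells, miR-296 and miR-470 have been reported, with miR-134, to target the coding sequences of the pluripotency factors Nanog, Pou5f1 and Sox2, and to increase when the cells differentiate under retinoic acid. miR-298 is known in mouse for targeting the mRNA of the β-secretase Bace1. The X-linked cluster that holds miR-470 is best known from the testis.

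The sequences of the 6 mature strands are given to show the arm and the seed that each entry names. All 6 were matched in RefSeq (GRCm38.p6), and capitals mark the seed.
miR-296-5p: aGGGCCCCcccucaauccugu
miR-296-3p: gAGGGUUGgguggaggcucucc
miR-298-5p: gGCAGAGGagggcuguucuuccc
miR-298-3p: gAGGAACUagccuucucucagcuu
miR-470-5p: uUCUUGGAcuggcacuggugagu
miR-470-3p: aACCAGUAccuuucugagaaga

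The 6 seeds differed from each other. None was shared with another of the 1017 array entries, of 1247, that had a RefSeq sequence. Bases G and C made up 66.7% of miR-296-5p and 65.2% of miR-298-5p, against 52.2% of miR-470-5p and 40.9% of miR-470-3p. The undetected miR-296-3p, at 68.2%, was as rich in them as the detected arms. Any part of base composition in detection was not tested.

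The 3 hairpins show where the arms lie, with both mature strands in capitals. In GRCm38.p6, Mir296 is at chr2:174267047-174267125, Mir298 at chr2:174267504-174267585 and Mir470 at chrX:66813951-66814025, all on the minus strand.
Mir296: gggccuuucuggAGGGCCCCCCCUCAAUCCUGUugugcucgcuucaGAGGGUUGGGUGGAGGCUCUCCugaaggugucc
Mir298: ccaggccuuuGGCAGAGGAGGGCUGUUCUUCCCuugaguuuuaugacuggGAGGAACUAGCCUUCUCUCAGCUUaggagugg
Mir470: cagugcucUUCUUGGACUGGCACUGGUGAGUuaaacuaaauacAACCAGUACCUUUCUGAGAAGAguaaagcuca

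Mir296 and Mir298 are 378 bases apart on the same strand. Each is a miRNA gene of its own in the RefSeq table, which lists no other gene across either hairpin. The arm names were checked against the probe positions in the authors' deposited table, since 1 arm of each Gnas hairpin was read and the other was not. As given there, all 6 positions fell on the opposite arm of the hairpin. Reflected within the hairpin, all 6 fell on the arm they are named for. The same held for 393 of 395 positions on minus-strand hairpins, while 534 of 536 on plus-strand hairpins were on the named arm as given. The arms are therefore called by their names and the table's positions are not used further. The positions span 9 bases for miR-296-3p, 16 for each detected arm and 15 to 19 for the other undetected entries. Any part of this span in detection was not tested.

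The study compared 3 conditions, all in cells of a C57 mESC line. Undifferentiated mESCs grew under normoxia with leukaemia inhibitory factor (LIF) on feeders, mouse embryonic fibroblasts stopped with mitomycin C. EBs, formed in hanging drops with neither LIF nor feeders, were kept under normoxia or under hypoxia. Each condition lasted 16 h and was read on 2 single-colour (Cy3) Agilent miRNA arrays. Whether the 2 arrays of a condition hold separate cultures is not in the labels. The p-values thus cover array-to-array spread, which can be purely technical. The labels give no oxygen level for hypoxia.

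For each miRNA the scanner gives a signal with an error and flags detection. It flagged 408 to 495 miRNAs per array, and 508 on at least 1 array. Over the 391 miRNAs with a flag on every array, the 75th percentile was 137 and 140.0 units for mESCs. It was 222 and 237 for normoxic EBs against 219 and 175 for hypoxic EBs. Each array was scaled to this percentile, so that scaled values are relative to the bulk of miRNAs. The mESC arrays lie in another row of the slide than the EB arrays, per the file names. Slide row, feeders and cell state cannot be told apart. All 5 ES cell marker miRNAs of the miR-290 and miR-302 clusters were detected on every array. Of 10 fibroblast miRNAs, 3 were detected on both mESC arrays, namely miR-21a-5p, miR-22-3p and miR-125b-5p, while miR-143-3p, miR-199a-5p, miR-10a-5p and miR-10b-5p were detected on no array. The summed scaled signal of the fibroblast list went from 460.5 to 485 in mESCs down to 295.6 to 325 in normoxic EBs and 241 to 257 in hypoxic ones. The list did not move as one: from mESCs to normoxic EBs miR-21a-5p fell from a mean of 404 to 190, miR-125b-5p rose from 25.4 to 69.9, miR-199a-3p rose from undetected to 6.70, and miR-22-3p was at 43.7 in both. The median over the 4 tested was 0.59 in log2, beside 0.05 over all tested miRNAs. From normoxic to hypoxic EBs all 4 fell, where 25.2% of all tested miRNAs were called lower. Of the same list, miR-145a-5p (8.23) and miR-214-3p (3.62) were detected on hypoxic EB replicate 1 only. miR-210-3p, the best known hypoxia-induced miRNA, was at 154 and 142 in mESCs, fell to 79.3 and 73.6 in normoxic EBs (log2 -0.95, adjusted p = 0.00121 by limma), and was at 171 and 181 in hypoxic ones (log2 1.21 over normoxic EBs, adjusted p = 0.00601 by limma). Hypoxic EBs differed from normoxic mESCs by 0.25 in log2 (adjusted p = 0.031 by limma).

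miR-296-5p was detected on every array, and its order between groups depended on the scaling. Unscaled, the mESC arrays gave 68.3 and 67.5 units, the normoxic EB arrays 102 and 103, and the hypoxic EB arrays 91.9 and 96.6. All 4 EB arrays were above both mESC arrays, and the normoxic EB arrays were the highest. The signal was 13.1 to 13.7 times the scanner's error.

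After scaling, mESC arrays gave 93.9 and 90.8 for miR-296-5p, normoxic EBs 86.2 and 81.7, and hypoxic EBs 79.1 and 104. The normoxic EB arrays were now just below the mESC arrays. The hypoxic EB arrays held both the lowest and the highest value of the 6, so they overlapped both other groups.

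**Figure D1:**
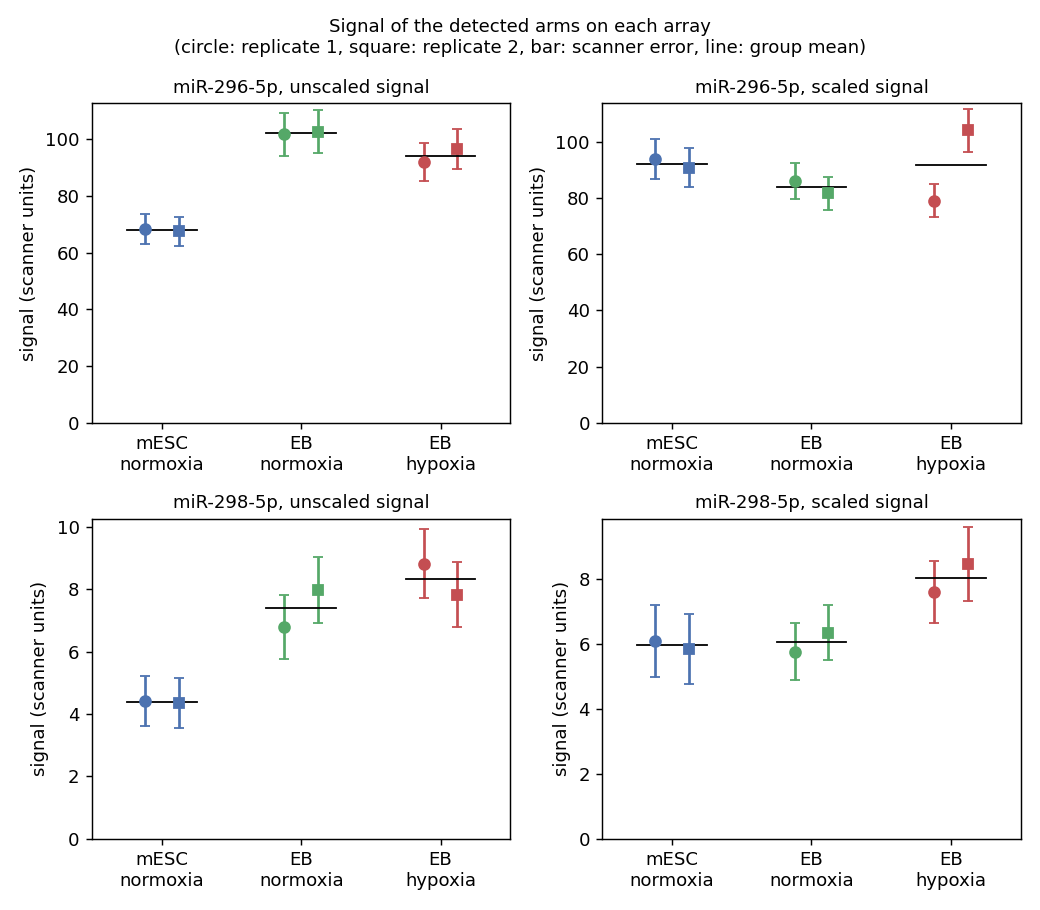
Signal of miR-296-5p (top) and miR-298-5p (bottom) on each array, in scanner units, unscaled (left) and scaled to the 75th percentile (right); circles are replicate 1, squares replicate 2, bars the scanner's error and lines group means. Unscaled, both arms are lower on the mESC arrays than on any EB array; scaled, miR-298-5p is highest in hypoxic EBs, at 7.59 and 8.45, and miR-296-5p ranges from 79.1 to 104 within hypoxic EBs.

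miR-296-5p passed the limma test in none of the 3 comparisons. Its mean was 92.3 ± 2.18 (SD, n = 2) in mESCs and 83.9 ± 3.18 in normoxic EBs, a log2 change of -0.14 (95% interval -0.52 to 0.24, adjusted p = 0.454 by limma). Hypoxic EBs, at 91.6 ± 17.8, differed from normoxic EBs by 0.11 (-0.27 to 0.50, adjusted p = 0.511 by limma) and from mESCs by -0.02 (-0.41 to 0.36, adjusted p = 0.901 by limma). The call rate over all tested miRNAs was 51.2%, 58.1% and 75% in these comparisons, in the order given. As folds, the intervals run from 0.697 to 1.18 for normoxic EBs over mESCs, from 0.830 to 1.41 for hypoxic over normoxic EBs and from 0.754 to 1.28 for hypoxic EBs over mESCs, so equal levels were not shown. In order of group means, mESCs came first, then hypoxic EBs, then normoxic EBs, and neither pair of neighbours passed the test.

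The result for miR-296-5p under hypoxia rested on which hypoxic array was read. Without hypoxic EB replicate 1 the log2 change over normoxic EBs was 0.31 (adjusted p = 0.0336 by limma). Without hypoxic EB replicate 2 it was -0.08 (adjusted p = 0.248 by limma), and miR-296-5p was below mESCs by -0.21 (adjusted p = 0.0413 by limma). In both cases the group left with 1 array is assumed to vary like the others.

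The gap between the hypoxic arrays was seen after scaling. Unscaled, they differed by 0.481 times the combined scanner error for miR-296-5p. Scaled, they differed by 2.62 times that error, or 0.40 in log2, and 13 of the 391 miRNAs detected on all arrays had a larger gap in either direction. Over these 391 miRNAs the median unscaled log2 difference, replicate 2 minus replicate 1, was -0.25, whereas for miR-296-5p it was 0.07. In the other groups the scaled gaps of miR-296-5p were -0.05 for mESCs and -0.08 for normoxic EBs, and the unscaled ones -0.018 and 0.014. A check of this gap against base composition is void, because a RefSeq sequence was matched for 286 of the 391 miRNAs (73.1%).

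**Figure D2:**
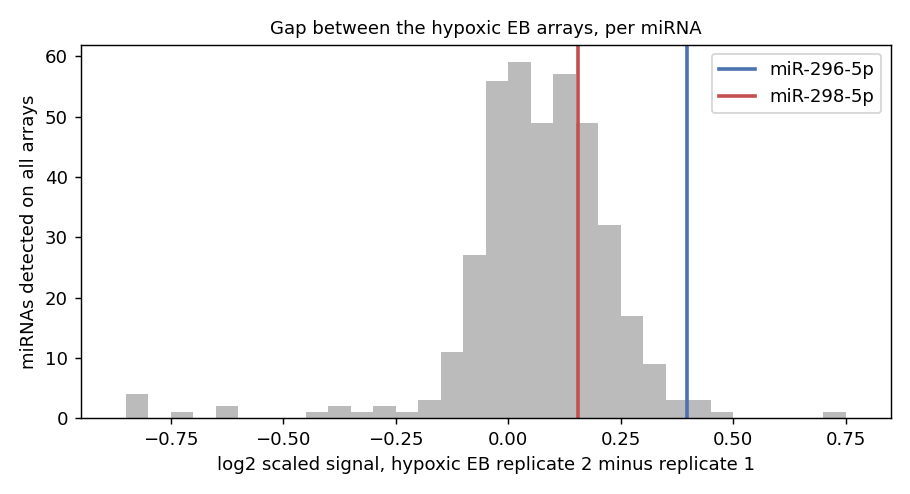
Histogram of the difference in log2 scaled signal between hypoxic EB replicates 2 and 1 for the 391 miRNAs detected on all arrays; vertical lines mark miR-296-5p and miR-298-5p. miR-296-5p, at 0.40, lies in the upper tail and miR-298-5p, at 0.15, within the bulk.

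miR-298-5p was dim and was higher in hypoxic EBs than in either other group. Unscaled, the mESC arrays gave 4.42 and 4.35 units, the normoxic EB arrays 6.79 and 7.98, and the hypoxic EB arrays 8.82 and 7.83. The mESC arrays were lowest and both EB groups overlapped. The signal was 5.42 to 7.95 times its error, against a median of 11.2 to 11.7 times over all detected miRNAs of an array, and the lowest signal flagged as detected was 1.93 to 2.54 across arrays.

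Once scaled, mESCs gave 6.08 and 5.85 for miR-298-5p, normoxic EBs 5.75 and 6.34, and hypoxic EBs 7.59 and 8.45. The hypoxic EB arrays stood above the other 4, and the mESC and normoxic EB arrays overlapped. The 2 arrays of a group differed by 0.148 to 0.579 times the combined scanner error.

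From mESCs, at 5.96 ± 0.161 (SD, n = 2), to normoxic EBs, at 6.05 ± 0.414, the log2 change of miR-298-5p was 0.02 (-0.20 to 0.24, adjusted p = 0.891 by limma). In this comparison 0 of the 2 tested members were called (0 also at an unadjusted p under 0.05), where limma called 51.2% of all 484 tested miRNAs, 26% higher and 25.2% lower. The arrays did not overlap for 1 member, miR-296-5p, as for 79.3% of tested miRNAs.

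Under hypoxia miR-298-5p rose to 8.02 ± 0.608, which was 1.33-fold over normoxic EBs (1.14 to 1.55, log2 0.41, adjusted p = 0.0184 by limma). It was 1 of the 2 tested members called in this comparison, where 58.1% of tested miRNAs were called 32.9% higher and 25.2% lower. The groups' scaled arrays did not overlap for miR-298-5p, as for 84.7% of tested miRNAs. Its change was larger in size than that of 61.0% of tested miRNAs, and the median over all of them was 0.10. Nothing particular to miR-298-5p can be read from the call against that background. The call was lost without scaling (0.18, adjusted p = 0.286), with the authors' normalized ratio (0.18, adjusted p = 0.312), quantile normalization (0.07, adjusted p = 0.799), cyclic loess (0.18, adjusted p = 0.123) or no filter (0.41, adjusted p = 0.12), and on leaving out mESC replicate 1 (0.40), normoxic EB replicate 1 (0.33) or hypoxic EB replicate 2 (0.33). The log2 change stayed above 0 in all settings that gave a value. The other filters and fits reuse the same scaled values, so they could not change its direction. All 5 ES cell markers fell in the same comparison, with log2 changes of -0.41 to -0.24. From mESCs to normoxic EBs their changes were -1.83 to -0.08, and 2 of the 5 were called lower, as were 25.2% of tested miRNAs. The summed scaled signal of these markers was 23929 to 25016 in mESCs, 19798 to 22032 in normoxic EBs and 16957 to 17003 in hypoxic ones. Their part in the result, and that of the fibroblast list, was not tested.

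Against mESCs, hypoxic EBs had 1.34-fold more miR-298-5p (1.15 to 1.57, log2 0.43, adjusted p = 0.00955 by limma). Of the 2 tested members 1 was called, against 75% of tested miRNAs called in this comparison, 41.3% higher and 33.7% lower. The scaled arrays did not overlap for miR-298-5p, as for 88% of tested miRNAs. Unscaled, the mESC arrays, at 4.35 and 4.42, were below the normoxic EB arrays (6.79 and 7.98) as well as the hypoxic ones (7.83 and 8.82). The median unscaled log2 change over all tested miRNAs was 0.57 for hypoxic EBs over mESCs. Only in this comparison did the arrays of miR-298-5p not overlap both before and after scaling. Quantile normalization turned the log2 change to -0.22 (adjusted p = 0.397 by limma), and the call was also lost with cyclic loess (0.10), no filter (0.43) or without mESC replicate 2 (0.40). This comparison shares its hypoxic arrays with the one before, so the 2 calls rest on the same readings.

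**Figure D3:**
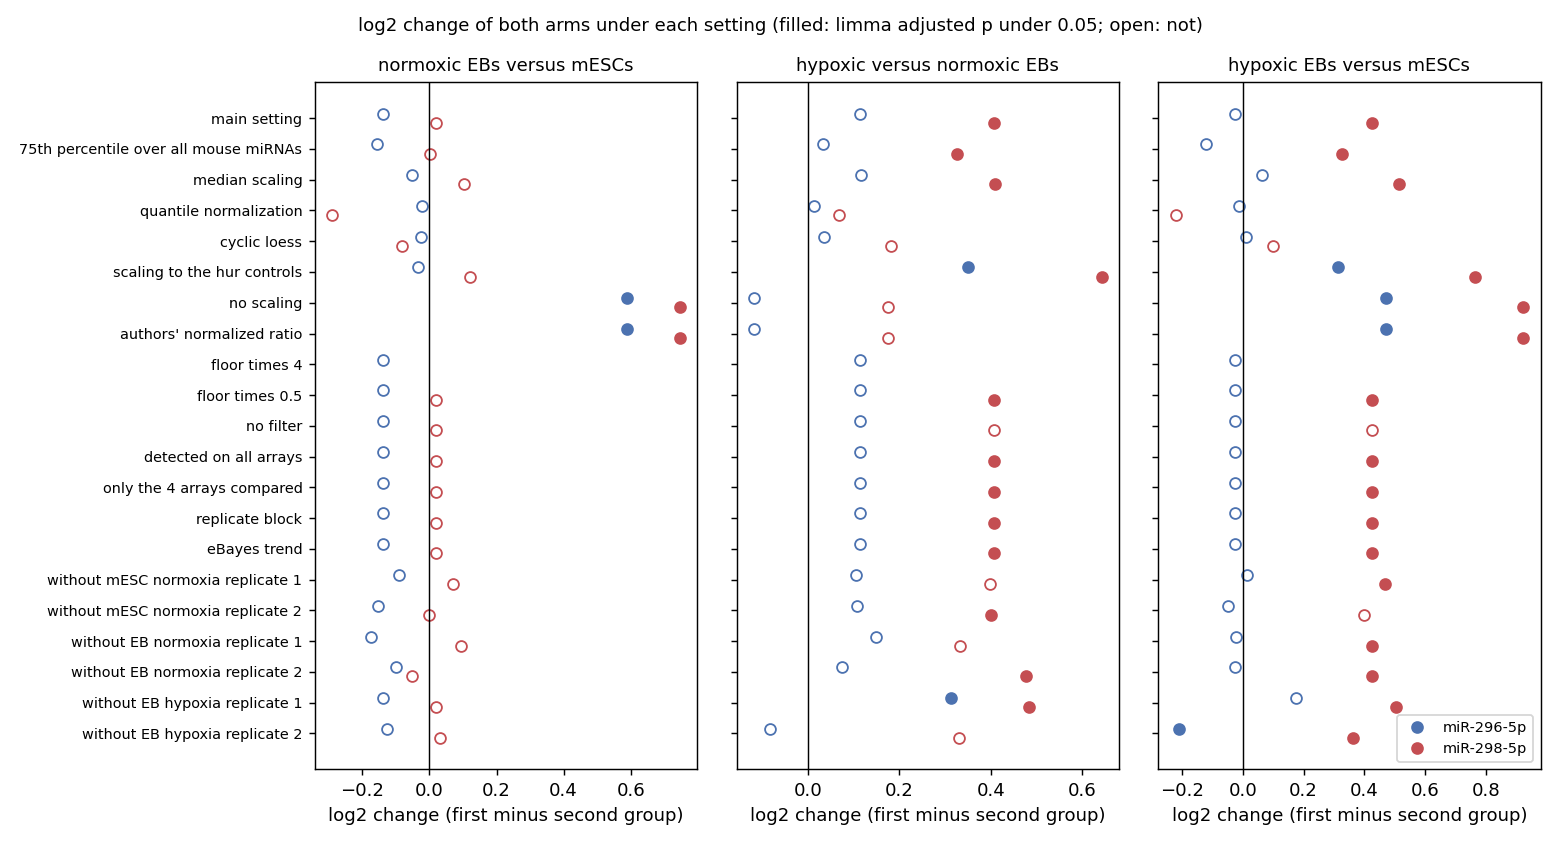
Log2 change of miR-296-5p (blue) and miR-298-5p (red) in the 3 comparisons under the main setting and each alternative; filled points have a limma adjusted p under 0.05 and open points do not. miR-298-5p lies between 0.07 and 0.64 for hypoxic versus normoxic EBs, while miR-296-5p changes sign between settings in each of the 3 panels.

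Without scaling both arms were higher in normoxic EBs than in mESCs. The log2 change was then 0.59 for miR-296-5p (adjusted p = 0.00228 by limma) and 0.75 for miR-298-5p (adjusted p = 0.00394 by limma). The median of all tested miRNAs moved as well, to 0.74 from 0.05, so that relative to it miR-296-5p was lower and miR-298-5p at about the same value. With scaling to the hur control features, where the median for hypoxic versus normoxic EBs was 0.34, miR-296-5p had a log2 change of 0.35 (adjusted p = 0.039 by limma).

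The difference between the neighbours within an array is free of any scaling by a single factor, though quantile normalization and cyclic loess can move it. The log2 signal of miR-296-5p minus that of miR-298-5p was 3.95 and 3.96 for the mESC arrays. It was 3.90 and 3.69 for normoxic EBs against 3.38 and 3.62 for hypoxic EBs. These are differences between probes of unlike brightness, so only their movement between groups can be read. The difference was lower in hypoxic EBs than in normoxic EBs (-0.29) and than in mESCs (-0.45), and no array of a group overlapped another group. The change was -0.16 from mESCs to normoxic EBs, and quantile normalization turned that to 0.27 and the one from mESCs to hypoxic EBs to 0.21. The exact two-sided permutation test gave p = 0.333 in each of the 3 comparisons, the smallest that 2 arrays against 2 allow. This test could not pass the threshold whatever the values, so it does not settle whether the 2 neighbouring miRNAs changed unequally.

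miR-470-5p and miR-470-3p were listed at the scanner's value of 0.1 for undetected entries on all 6 arrays, as were miR-296-3p and miR-298-3p. Detection was flagged before scaling, and the lowest detected signal of an array, at most 2.54 units, is no firm limit for an undetected entry. A level below detection was thus all that could be read for miR-470, in mESCs and in EBs alike. Its neighbours on the X chromosome were mostly undetected too. Of 32 listed X-linked entries, which include the nearest one, miR-871, at 3446 bases, 2 were detected on any array.

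These 2 were miR-878-3p, whose gene lies 12365 bases from Mir470, and miR-547-5p, much farther along the chromosome at 1174348 bases. For miR-878-3p, scaled signals were 10.3 and 13.8 on mESC arrays, then 15.5 and 18.4 under normoxia and 14.2 and 16.1 under hypoxia in EBs. The EB arrays were above the mESC arrays, but no comparison passed in the main setting (normoxic EBs over mESCs log2 0.50, adjusted p = 0.0776 by limma). That comparison passed in 7 of 20 alternatives, and hypoxic EBs over mESCs in 4 of 20. On the mESC arrays miR-547-5p was 3.03 and 3.86 times its scanner error. Its scaled signal rose from 6.75 ± 1.21 in mESCs to 14.1 ± 2.998 in normoxic EBs (log2 1.06, adjusted p = 0.0216 by limma), where 26% of tested miRNAs were called higher. That call was lost with quantile normalization, a floor 4 times as high or no filter, and without mESC replicate 1 or normoxic EB replicate 2.

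miR-134-5p belongs to the miRNA reported with miR-296 and miR-470 to target the pluripotency factors, and it was detected on all arrays. mESCs gave scaled signals of 47.0 and 50.4, normoxic EBs 52.9 and 54.96, and hypoxic EBs 65.9 and 76.5. All EB arrays were above the mESC arrays and the hypoxic ones were highest. The change from mESCs to normoxic EBs was 0.15 in log2 (adjusted p = 0.237 by limma), and the one from normoxic to hypoxic EBs 0.40 (adjusted p = 0.0235 by limma), close in size to that of miR-298-5p. The latter call was lost without scaling (0.17), with the authors' ratio, with no filter, in a fit of the 4 arrays compared, and without either normoxic EB array or hypoxic EB replicate 2. The change from mESCs to normoxic EBs passed in 5 of 20 alternatives. Hypoxic EBs were above mESCs by 0.55 (adjusted p = 0.00599 by limma), a call lost in 1 of 20 alternatives. In that comparison 75% of tested miRNAs were called. miR-145a-5p, of the miR-145 reported to target pluripotency factors in human ES cells, was detected on 1 hypoxic EB array only.

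The list of miRNAs of other imprinted genes held both arms of miR-335, in the paternally expressed Mest, of miR-483, in the paternally expressed Igf2, and of miR-675, in the maternally expressed H19. Both arms of miR-335 and of miR-483 were tested and miR-675 was detected on no array. From mESCs to normoxic EBs 1 of the 4 rose and none fell: miR-483-5p went from 197 ± 9.38 to 300 ± 4.17 (log2 0.61, adjusted p = 0.00728 by limma). Over all tested miRNAs 26% rose and 25.2% fell in that comparison. The call of miR-483-5p was lost with no filter and without normoxic EB replicate 2. In hypoxic EBs over mESCs it rose by 0.84 (adjusted p = 0.00191 by limma), a call kept in all 20 alternatives. There 1 of the 4 rose and 1 fell, while 41.3% of tested miRNAs were called higher and 33.7% lower. Under hypoxia 1 rose and 2 fell against normoxic EBs, with a median log2 change over the 4 of -0.04 beside 0.10 over all tested miRNAs. Of all tested miRNAs 58.1% were called there, 32.9% higher and 25.2% lower, so nothing particular to the list can be read from its count.

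The largest of these was miR-335-5p, for which normoxic EBs gave 30.9 and 28.1 and hypoxic EBs 20.5 and 19.5. The hypoxic arrays were below both normoxic ones. It fell by 0.56 in log2 (adjusted p = 0.00802 by limma), opposite to miR-298-5p. The other faller was miR-335-3p, at -0.31, and the riser miR-483-3p, at 0.33, and these calls were lost in 12 and 14 of 20 alternatives, respectively. The fall of miR-335-5p kept its direction in all of them, though the other filters and fits reuse the same scaled values. Its call was lost with hur scaling (-0.32), the authors' ratio (-0.79) and no filter (-0.56).

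**Figure D4:**
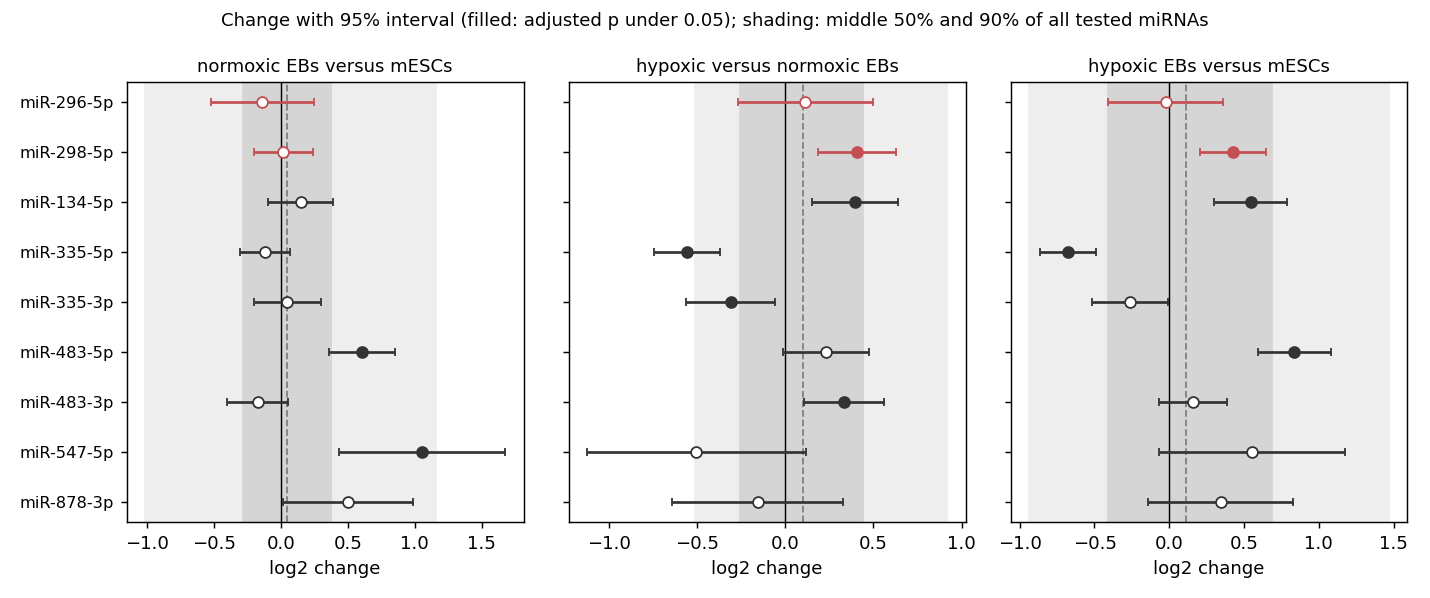
Log2 change with its 95% limma interval for the 2 detected members (red) and the related miRNAs (black) in the 3 comparisons; filled points have an adjusted p under 0.05, the dark and light bands hold the middle 50% and 90% of the 484 tested miRNAs and the dashed line is their median. Both members lie inside the dark band in every comparison, whereas miR-335-5p under hypoxia lies below it.

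Profiles most like those of the 2 members were sought among the other 389 miRNAs detected on all 6 arrays, as the smallest root mean square difference in log2 over the arrays after centring each miRNA on its mean. For miR-296-5p these were miR-290-5p (0.0882), miR-6370 (0.0934) and miR-5103 (0.109). For miR-298-5p they were miR-5131 (0.0479), miR-1892 (0.0562) and miR-3102-3p.2-3p (0.0634). miR-296-5p and miR-298-5p differed from each other by 0.209 on the same measure. The 6 points share arrays and scaling, so likeness is a description. mESCs gave 262 and 268 for miR-5131, normoxic EBs 267 and 269, and hypoxic EBs 342 and 387, and as for miR-298-5p its hypoxic arrays stood above the rest. miR-290-5p, of the ES cell miR-290 cluster, gave 696 and 704 with mESCs, while normoxic EBs gave 619 and 602 and hypoxic EBs 617 and 676. Its hypoxic arrays lay 0.13 apart in log2, closer than the 0.40 of miR-296-5p.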

How the data were processed

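Single-colour Agilent arrays of total RNA were deposited as 1 scanner file per sample. Per the file headers, each of the 1268 features, 21 of them controls, has a deposited total gene signal (an intensity) with an error and a flag for detection. Undetected entries have an intensity of 0.1. For the scanner software and the rule for detection: not given in the sources used here. The labels describe a cRNA labelling kit, and which labelling was used for miRNA is not settled. The authors' deposited table repeats the raw intensities (equal in all 1253 shared rows) and gives a normalized ratio to a control value per miRNA. It has 6 columns of arrays, headed ES-Hyp, that match no listed sample, and these were not used.

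Signals were divided by the array's 75th percentile over 391 miRNAs flagged on every array, multiplied by the mean percentile, floored at 2.91 and log2-transformed from the deposited intensity. A fit was made over 484 miRNAs, those flagged on both arrays in 1 group or more, with limma 3.58.1 (lmFit, eBayes, residual df 3, prior df 1.43; R 4.3.3), with all 6 arrays together, Benjamini-Hochberg adjustment per comparison and a threshold of 0.05. Members were read from that fit. The fit was tested on simulated data. Quantile normalization and cyclic loess were run over the tested miRNAs, a choice made after seeing that most entries are tied at the floor. Named miRNAs are all entries of miR-296, miR-298 and miR-470, lists fixed by name (X-linked neighbours, other reported repressors of pluripotency factors, other imprinted hosts, ES cell and fibroblast markers) with up to 4 detected members given values, and the 3 most alike profiles per detected member. Members and lists were chosen with earlier results of these data known. Replicate numbers were not treated as pairs in the main fit. Alternatives were other scalings, floors, filters, fits and left-out arrays. Figures were drawn with Python 3.11.15.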

Additional observations from a re-analysis of the deposited data

How the results depend on the processing

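Values here are log2 changes or counts of called miRNAs, and unless a cause is evident from the construction of an alternative, it was not tested. miR-298-5p kept its direction for hypoxic over normoxic EBs in all 19 alternatives that gave a value and its call in 11. The other filters and fits reuse the same scaled values, and the lower floor lay under all its signals. Its direction was thus fixed in advance in those alternatives. With quantile normalization miR-298-5p was -0.29, 0.068 and -0.22 for normoxic EBs over mESCs, hypoxic over normoxic EBs and hypoxic EBs over mESCs, and with cyclic loess -0.083, 0.18 and 0.10. Without scaling, and equally with the authors' ratio, the first was 0.75 and the second 0.18, and with no filter the second was 0.41 and the third 0.43, no longer called among 1247 entries. With a floor 4 times as high miR-298-5p was at the floor on all arrays and gave no value. miR-296-5p for hypoxic EBs over mESCs was 0.064 with median scaling, 0.011 with cyclic loess, 0.31 with hur scaling and 0.47 without scaling or with the authors' ratio. Without scaling or with that ratio its other changes were 0.59 for normoxic EBs over mESCs and -0.12 for hypoxic over normoxic EBs, which was 0.35 with hur scaling. The within-array difference for normoxic EBs over mESCs was 0.27 with quantile normalization and 0.059 with cyclic loess, and for hypoxic EBs over mESCs 0.21 with quantile normalization.

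Leaving out 1 array at a time gave -0.17 to -0.092, -0.084 to 0.31 and -0.21 to 0.17 for miR-296-5p in the 3 comparisons, and -0.051 to 0.093, 0.33 to 0.48 and 0.36 to 0.50 for miR-298-5p. Counts called were then 75 to 148 higher and 70 to 120 lower for normoxic EBs over mESCs (126 and 122 with all arrays), 89 to 150 and 64 to 124 for hypoxic over normoxic EBs (159 and 122), and 165 to 195 and 127 to 164 for hypoxic EBs over mESCs (200 and 163). Without scaling, normoxic EBs over mESCs had 326 higher and 11 lower, hypoxic over normoxic EBs 24 higher, and hypoxic EBs over mESCs 19 lower. With the authors' ratio these were 304 and 11, 16 higher and 30 lower, and 15 lower. With hur scaling 15 and 60 were lower in the hypoxic comparisons. A floor 4 times as high left 57 higher in normoxic EBs over mESCs. No filter left 43 higher and 51 lower, 12 and 8, and 124 and 107. A fit of only the 4 arrays compared left 78 lower for hypoxic over normoxic EBs.

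Among related miRNAs, quantile normalization turned miR-335-5p (0.0046) and miR-483-3p (0.065) for normoxic EBs over mESCs and miR-547-5p (-0.16) for hypoxic EBs over mESCs. Hur scaling turned miR-878-3p (0.078) for hypoxic over normoxic EBs and miR-335-3p (0.078) for hypoxic EBs over mESCs. No scaling and the authors' ratio turned miR-335-5p (0.61) and miR-483-3p (0.55) for normoxic EBs over mESCs, miR-483-5p (-0.0020) for hypoxic over normoxic EBs and miR-335-3p (0.24) for hypoxic EBs over mESCs. Without normoxic EB replicate 1, miR-335-3p was -0.067 for normoxic EBs over mESCs.

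Same-numbered arrays deviated together with correlations of 0.02, 0.06 and -0.02. With 2 arrays a group, these values cannot show whether the numbers pair samples. With the replicate block miR-298-5p remained at 0.41 (adjusted p = 0.0262 by limma) for hypoxic over normoxic EBs, and no call of either arm changed. Quantile normalization and cyclic loess were first run over all 1247 entries and then over tested miRNAs only, after those values had been seen. The signal of miR-298-5p was at most 7.95 times its scanner error, and the number of arrays, 2 a group, limits the precision.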
